A study of Rattus norvegicus with 9 samples.

Results

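The insulin-like growth factor (IGF) system was described here by 10 genes: the ligands Igf1 and Igf2, the receptors Igf1r and Igf2r, and the binding proteins Igfbp2, Igfbp3, Igfbp4, Igfbp5, Igfbp6 and Igfbp7. They were chosen by symbol, as 10 of the 17327 rows of a read count table, and all 10 had enough reads to be tested. The table came from RNA sequencing of primary cardiomyocytes of the neonatal rat ventricle, cells widely used to study hypertrophic growth in culture. Of the 3 groups of 3 samples each, one received 50 µM phenylephrine, an agonist of alpha-1 adrenergic receptors, one received 10 nM IGF1, and one received vehicle, each for 48 h. No genetic change separated the groups. Whether a group's 3 samples were grown from different litters or dishes is not stated in the labels, and the p-values therefore rest on a between-sample spread that could be purely technical.

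IGF1 and IGF2 are small secreted hormones related to insulin that act on the receptor tyrosine kinase IGF1R, which signals through the IRS adaptor proteins to PI3K and AKT and through SHC to MAP kinases. IGF2R, also called the cation-independent mannose 6-phosphate receptor, takes up IGF2 and carries it to lysosomes, and it sorts lysosomal enzymes. The IGF binding proteins hold IGFs in the fluid around cells and can limit or prolong their action, and in the heart IGF1R signalling is known for promoting growth and survival of cardiomyocytes.

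Total counts ran from 31274396 to 48505265 per sample, and levels below are in CPM, reads scaled to the size of each library, where 1 CPM rested on 29.1 to 51.6 reads. Among the member genes, counts per sample ran from 113 to 112013 reads. IGF1 replicate 1 stood apart from the other IGF1 samples: 263 genes were more than 1.5-fold apart between it and IGF1 replicate 2, and 226 between it and IGF1 replicate 3, whereas every other pair within a group had 6 to 30 such genes. Since all 9 samples share one estimate of the spread, this sample touches every test. Values without it are given where they change the call of a member, and for some of the other genes. Markers of cardiomyocytes summed to 24994 to 25413 CPM with phenylephrine, 26929 to 30114 CPM with IGF1 and 22341 to 24057 CPM with vehicle, led by the troponin gene Tnnt2. Fibroblast markers were also present, at 4727 to 4822, 5966 to 6888 and 5087 to 6080.0 CPM in the same order of groups, with IGF1 and vehicle samples overlapping. Single cardiomyocyte markers did not all follow their sum. By the test described below, 4 of 8 were higher and 4 lower with phenylephrine than with vehicle, against 27.9% and 28.9% of all genes. With IGF1, 5 were higher and 1 lower, against 24.7% and 23.4% of all genes. In such bulk samples, fewer cells of a type and less RNA per cell cannot be told apart.

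With phenylephrine, the receptor Igf1r was 1.44-fold higher than with vehicle, while the binding protein Igfbp3 was 2.19-fold, Igfbp2 1.60-fold and the ligand Igf2 1.42-fold lower. Igfbp5 and Igf2r were lower by 1.22-fold and 1.10-fold. A gene was called where edgeR's quasi-likelihood test gave an adjusted p under 0.05 over all 11873 genes tested. On that rule, 1 of the 10 members was higher, against 27.9% of all genes, and 5 were lower, against 28.9% of all genes. The members' median log2 fold change was -0.15, beside -0.03 over all genes.

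With IGF1, Igf1r was 1.52-fold and Igfbp2 2.23-fold lower than with vehicle, while Igfbp5 was 2.03-fold, Igfbp4 1.67-fold and Igfbp3 1.59-fold higher. Igf2r was 1.18-fold lower. Thus 3 of the 10 members were higher, against 24.7% of all genes, and 3 were lower, against 23.4% of all genes. Their median log2 fold change was -0.11, beside -0.0018 over all genes.

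Set directly against IGF1, phenylephrine gave higher Igf1r (2.19-fold), Igfbp2 (1.39-fold) and Igfbp7 (1.11-fold) and lower Igfbp3 (3.49-fold), Igfbp5 (2.48-fold), Igfbp4 (1.78-fold) and Igf2 (1.25-fold). These calls, 3 higher and 4 lower, stood against 27.1% of all genes in each direction. The comparisons with vehicle share the vehicle samples, so it is the direct one that tests whether the treatments differed. These counts of members lie near the background for so short a list, and nothing about the system as a whole is read from them; the results lie in the single genes.

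**Figure D1:**
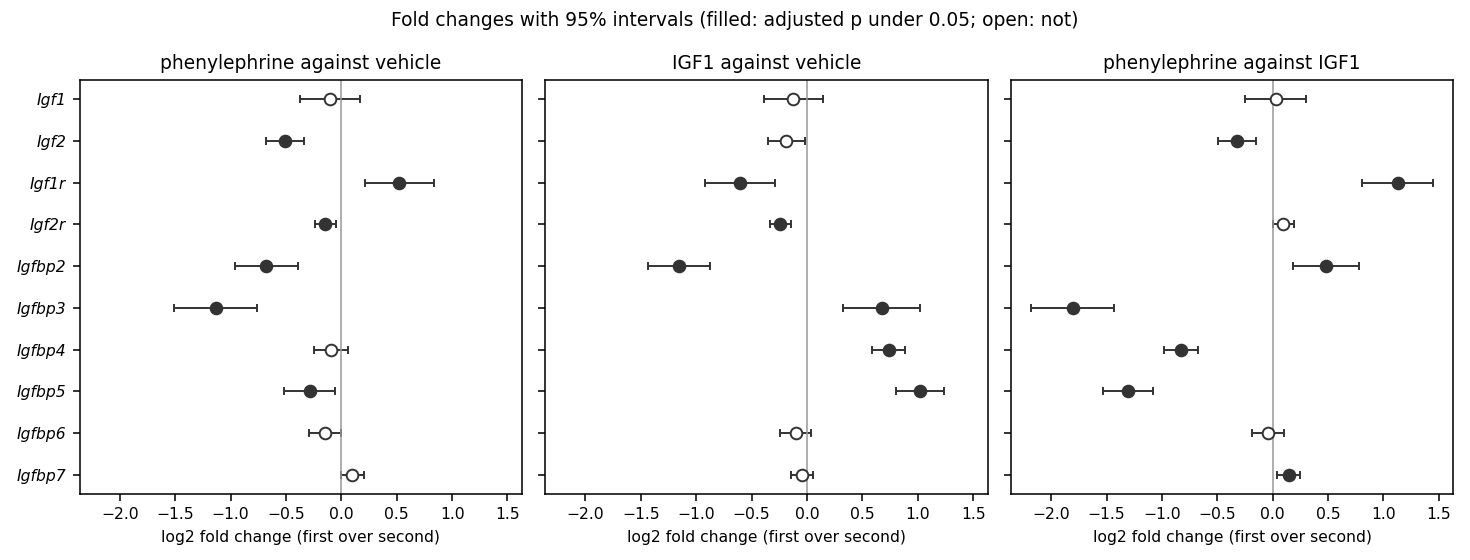
Log2 fold change (x axis) of the 10 IGF system genes (rows) in phenylephrine against vehicle, IGF1 against vehicle and phenylephrine against IGF1, each with its 95% interval. Igf1r lies at 0.52 and -0.61 against vehicle for phenylephrine and IGF1, and Igfbp3 at -1.13 and 0.67, while the intervals of Igf1 include 0 in all 3 panels. Filled points passed the test and open points did not.

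Of the ligands, Igf1, the gene of the hormone that was added as treatment in one group, had 9.07, 10.4 and 11.8 CPM with phenylephrine, 9.02, 9.64 and 12.0 CPM with IGF1 and 12.0, 11.8 and 9.79 CPM with vehicle. All 3 groups overlapped. The log2 fold change was -0.10 for phenylephrine against vehicle (95% interval -0.37 to 0.17, adjusted p = 0.528) and -0.13 for IGF1 against vehicle (-0.39 to 0.14, adjusted p = 0.432). Changes within these intervals remain compatible with the data. The counts hold the cells' own transcript and not the added protein.

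Igf2, the fetal growth hormone of the family, had 16.3, 16.8 and 17.5 CPM with phenylephrine, 18.5, 21.7 and 22.9 CPM with IGF1 and 25.0, 23.0 and 24.0 CPM with vehicle. Phenylephrine samples were the lowest, vehicle samples the highest, and no groups overlapped. Against vehicle, Igf2 fell with phenylephrine by 0.51 on the log2 scale (SE 0.08, edgeR adjusted p = 7.25e-05). The value for IGF1 against vehicle was -0.19 (95% interval -0.35 to -0.022), with an adjusted p of 0.0584 that missed the threshold. Its size turned on the samples and the scaling: it was -0.11 without IGF1 replicate 1, the lowest of its group (edgeR adjusted p = 0.191), but passed at -0.26 without IGF1 replicate 3 (edgeR adjusted p = 0.0189) and at -0.27 under scaling by library size only (edgeR adjusted p = 0.0363). Phenylephrine against IGF1 gave -0.32 (SE 0.08, edgeR adjusted p = 0.00349), so the difference between the treatments passed the test.

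H19, the noncoding RNA gene that neighbours Igf2 and is imprinted with it in mammals, averaged 15.7 ± 0.326 CPM with phenylephrine, 19.1 ± 4.05 CPM with IGF1 and 26.6 ± 1.08 CPM with vehicle (SD, n = 3 each). It fell in both comparisons with vehicle, by 0.76 with phenylephrine (edgeR adjusted p = 0.000146) and by 0.46 with IGF1 (edgeR adjusted p = 0.00511) on the log2 scale. A list of genes tied to Igf2 held H19, the mRNA-binding protein genes Igf2bp1 and Igf2bp2, Ctcf and Plagl1. Of these 5 tested genes, 3 fell with phenylephrine, where 28.9% of all genes fell. Besides H19 these were the insulator protein gene Ctcf (log2 -0.21) and the zinc finger gene Plagl1 (log2 -0.25). With IGF1, 1 rose and 2 fell, where 24.7% of all genes rose and 23.4% fell. Plagl1 then rose by 0.27 on the log2 scale (edgeR adjusted p = 0.0039), a call lost when counts were scaled by library size only, and the mRNA-binding protein gene Igf2bp2 fell by 0.32 (edgeR adjusted p = 0.00351).

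**Figure D2:**
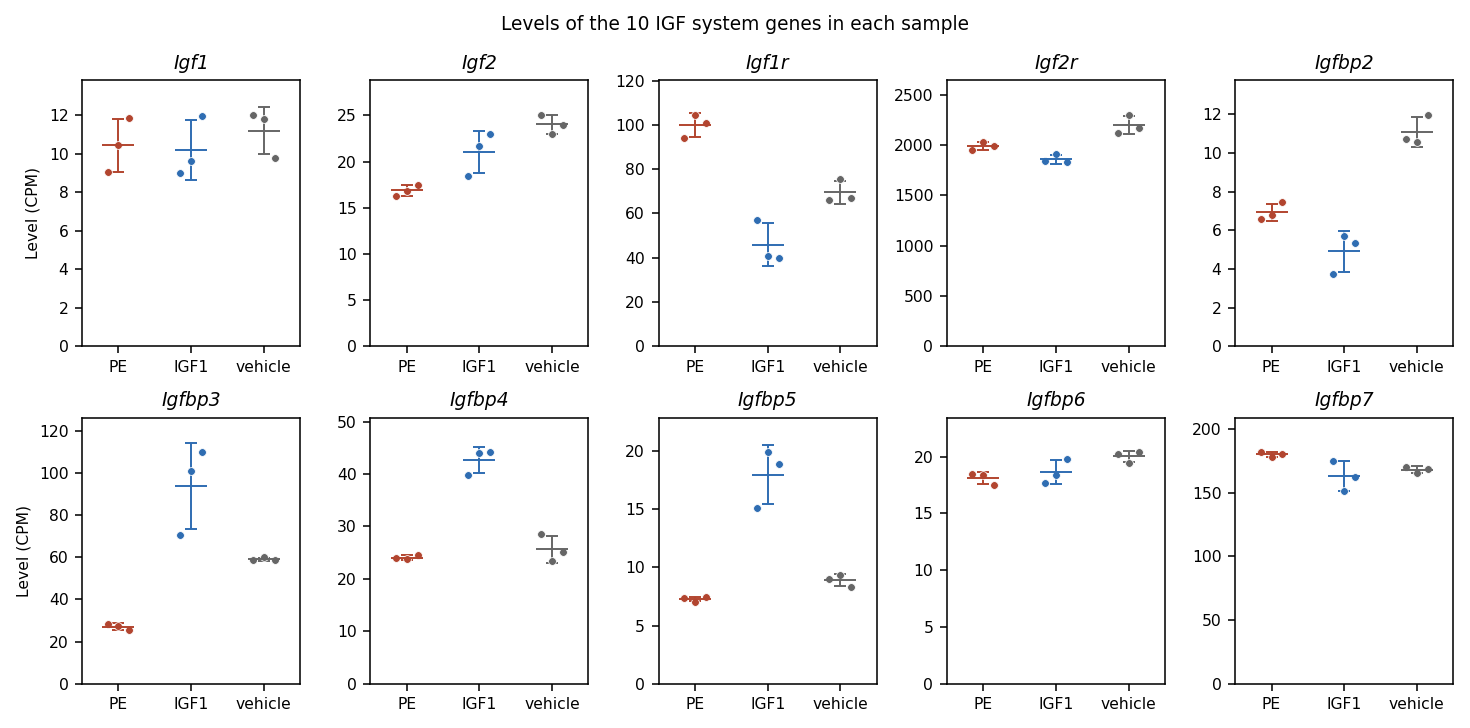
Level in CPM (y axis of each panel) of the 10 member genes in each sample, with phenylephrine (PE), IGF1 and vehicle along the x axis; points are samples and bars are group means with SD (n = 3). Igf1r is highest with phenylephrine (94.0 to 105 CPM) and lowest with IGF1 (39.9 to 57.0 CPM), and Igfbp3 shows the opposite order.

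Igf1r, the signalling receptor, had 94.0, 105 and 101 CPM with phenylephrine, 57.0, 40.8 and 39.9 CPM with IGF1 and 66.3, 75.4 and 66.9 CPM with vehicle. All phenylephrine samples lay above, and all IGF1 samples below, those with vehicle. It rose with phenylephrine by 0.52 on the log2 scale (SE 0.13, edgeR adjusted p = 0.011). With IGF1 it fell by 0.61 (SE 0.14, edgeR adjusted p = 0.00741), and by 0.78 without IGF1 replicate 1 (edgeR adjusted p = 4.9e-14), the sample nearest to vehicle. Phenylephrine against IGF1 gave 1.13 (SE 0.14, edgeR adjusted p = 0.000221).

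The 250 bases before the Igf1r start are shown because this receptor had opposite calls with the 2 treatments. RefSeq places them in the GRCr8 rat build at chr1:130959747-130959996 on the plus strand, and 79.6% of them are G or C, against a median of 51.2% over 33469 such windows. Capitals mark a GC box (GGGCGG, bases -184 to -179 from the start) and an E-box (CACGTG, bases -31 to -26).
Igf1r: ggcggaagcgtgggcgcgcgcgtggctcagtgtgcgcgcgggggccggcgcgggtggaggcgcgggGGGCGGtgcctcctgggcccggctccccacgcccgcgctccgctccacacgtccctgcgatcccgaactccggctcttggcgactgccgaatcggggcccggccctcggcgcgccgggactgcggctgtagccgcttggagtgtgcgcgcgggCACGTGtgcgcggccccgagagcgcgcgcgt
Motifs were searched as letters on both strands: GGGCGG was held by 30.5% of all windows, CACGTG by 5.59%, the TATA box TATAAA by 12.9%, the FoxO core GTAAACA by 3.21% and the AP-1 site TGACTCA by 4.05%. The motifs share no site in the member windows and were counted separately, so a window can hold several, and a match is a description of the letters only. Of the 10 members, 5 held GGGCGG (Igf2, Igf1r, Igf2r, Igfbp2 and Igfbp7), 3 held CACGTG (Igf1r, Igf2r and Igfbp2), 1 held TATAAA (Igfbp4), 1 held GTAAACA (Igfbp6) and none held TGACTCA. These counts are per gene, whereas the shares are per window. The 10 members had 11 windows, as Igf2 had more than 1, and a member was counted where any of its windows held the motif.

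Igf2r, the IGF2 clearance and mannose 6-phosphate receptor, had 1948, 2029 and 1996 CPM with phenylephrine, 1840.4, 1912 and 1831 CPM with IGF1 and 2126, 2300.5 and 2171 CPM with vehicle. Vehicle samples were the highest, those with IGF1 the lowest, and the groups did not overlap, although the differences were small. Igf2r fell by 0.14 on the log2 scale with phenylephrine (SE 0.05, edgeR adjusted p = 0.0142) and by 0.24 with IGF1 (SE 0.05, edgeR adjusted p = 0.000494). The phenylephrine call was lost without vehicle replicate 2 (-0.12, edgeR adjusted p = 0.0659) and without phenylephrine replicate 1 (-0.13, edgeR adjusted p = 0.0647). For phenylephrine against IGF1 the value was 0.10 (adjusted p = 0.0844), and 0.089 without IGF1 replicate 1 (edgeR adjusted p = 0.0195), which then passed.

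Igfbp3, the main carrier of IGFs in blood, had 28.4, 27.3 and 25.2 CPM with phenylephrine, 70.6, 101 and 110 CPM with IGF1 and 58.5, 59.9 and 58.9 CPM with vehicle. Vehicle samples lay in a narrow band, with all phenylephrine samples far below it and all IGF1 samples above it. Relative to vehicle it fell by 1.13 on the log2 scale with phenylephrine (SE 0.16, edgeR adjusted p = 0.000608) and rose by 0.67 with IGF1 (SE 0.15, edgeR adjusted p = 0.00769). IGF1 replicate 1 was the lowest of its group, and without it the IGF1 value was 0.84 (edgeR adjusted p = 9.7e-20). At -1.80 (SE 0.16, edgeR adjusted p = 4.64e-05), phenylephrine against IGF1 was the largest difference among the 10 members in any of the 3 comparisons.

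Igfbp5, a binding protein that adheres to extracellular matrix, had 7.35, 7.07 and 7.46 CPM with phenylephrine, 15.1, 19.9 and 18.9 CPM with IGF1 and 9.04, 9.33 and 8.35 CPM with vehicle. Its samples took the same order of groups as Igfbp3, with no overlap. With IGF1 it rose by 1.02 on the log2 scale (SE 0.10, edgeR adjusted p = 1.11e-06). With phenylephrine it fell by 0.29 (SE 0.11, edgeR adjusted p = 0.0342), a call that was lost in limma-voom (adjusted p = 0.0914) and without any 1 of vehicle replicates 1 and 2 or phenylephrine replicates 1 to 3 (-0.30 to -0.26, edgeR adjusted p = 0.0613 to 0.0975). Without IGF1 replicate 1 it was kept (edgeR adjusted p = 0.0065).

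Igfbp4, which mainly inhibits IGF action and is cut by the protease PAPP-A, had 23.9, 23.8 and 24.6 CPM with phenylephrine, 39.9, 44.1 and 44.2 CPM with IGF1 and 28.5, 23.3 and 25.1 CPM with vehicle. The IGF1 samples stood above all others, while phenylephrine and vehicle samples overlapped. It rose with IGF1 by 0.74 on the log2 scale (SE 0.07, edgeR adjusted p = 8.35e-07). For phenylephrine against vehicle the value was -0.09 (95% interval -0.25 to 0.064, adjusted p = 0.3), and -0.29 under scaling by library size only (edgeR adjusted p = 0.0138), which passed.

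Igfbp2, which binds IGF2 in preference to IGF1, had 6.59, 6.78 and 7.43 CPM with phenylephrine, 3.72, 5.71 and 5.32 CPM with IGF1 and 10.7, 10.6 and 12.0 CPM with vehicle. Both treatments lay below vehicle, IGF1 the lowest, and no samples overlapped between groups. It fell by 0.68 on the log2 scale with phenylephrine (SE 0.13, edgeR adjusted p = 0.000481) and by 1.16 with IGF1 (SE 0.13, edgeR adjusted p = 5.01e-06), or by 1.01 with IGF1 when IGF1 replicate 1 was left out. The difference between the treatments was 0.48 (SE 0.14, edgeR adjusted p = 0.00898), a call lost under scaling by library size only (0.36, edgeR adjusted p = 0.0709). With any 1 sample left out the call was kept, but the value ran from 0.33 to 0.59.

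Igfbp2 and Igfbp5 are next to each other among the protein-coding genes of rat chromosome 9, on opposite strands, with starts 49.4 kb apart in GRCr8. Yet with IGF1 one fell and the other rose. The windows before the starts of these neighbours and of Igfbp3 are shown because these 3 genes moved most with IGF1 or phenylephrine among the binding proteins. In RefSeq's GRCr8 they lie at chr9:81864561-81864810 on the plus strand for Igfbp2, chr9:81914188-81914437 on the minus strand for Igfbp5 and chr14:86277945-86278194 on the minus strand for Igfbp3. Capitals again mark GGGCGG (bases -66 to -61 in Igfbp2) and CACGTG (bases -140 to -135 in Igfbp2), and the other windows held none of the motifs searched.
Igfbp2: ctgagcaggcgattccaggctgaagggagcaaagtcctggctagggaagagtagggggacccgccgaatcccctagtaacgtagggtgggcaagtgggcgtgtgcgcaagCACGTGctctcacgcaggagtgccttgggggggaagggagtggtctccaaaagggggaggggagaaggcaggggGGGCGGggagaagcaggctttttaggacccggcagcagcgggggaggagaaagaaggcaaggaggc
Igfbp5: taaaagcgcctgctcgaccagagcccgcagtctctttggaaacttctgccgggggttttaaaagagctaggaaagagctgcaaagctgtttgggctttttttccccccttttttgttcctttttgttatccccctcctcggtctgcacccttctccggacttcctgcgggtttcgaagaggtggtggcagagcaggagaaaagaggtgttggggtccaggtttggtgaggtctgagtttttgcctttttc
Igfbp3: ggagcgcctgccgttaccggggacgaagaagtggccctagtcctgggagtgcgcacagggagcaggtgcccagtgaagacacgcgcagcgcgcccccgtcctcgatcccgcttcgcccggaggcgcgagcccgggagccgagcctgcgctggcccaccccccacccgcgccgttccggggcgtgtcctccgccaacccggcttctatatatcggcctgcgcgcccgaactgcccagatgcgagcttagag
The share of G and C was 64% for Igfbp2, 51.6% for Igfbp5 and 71.6% for Igfbp3.

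Igfbp6, a binding protein with a strong preference for IGF2, had 18.5, 18.4 and 17.5 CPM with phenylephrine, 17.7, 18.4 and 19.8 CPM with IGF1 and 20.3, 19.5 and 20.4 CPM with vehicle. Phenylephrine samples lay below all vehicle samples, whereas IGF1 and vehicle samples overlapped. The value for phenylephrine was -0.15 on the log2 scale (95% interval -0.29 to -0.0027, adjusted p = 0.0765), and that for IGF1 was -0.10 (adjusted p = 0.221), so neither passed. Under scaling by library size only, which lowers the median of all genes, the phenylephrine value was -0.34 (edgeR adjusted p = 0.00225) and passed.

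Igfbp7, a more distant relative with low affinity for IGFs, had 182, 178 and 180.2 CPM with phenylephrine, 175, 151 and 162 CPM with IGF1 and 170.2, 165 and 169 CPM with vehicle. Phenylephrine samples were the highest of the 9. Neither comparison with vehicle passed, at 0.10 for phenylephrine (adjusted p = 0.0917; -0.095 under scaling by library size only) and -0.05 for IGF1 (adjusted p = 0.459). Without IGF1 replicate 1 both did, at 0.099 (edgeR adjusted p = 0.0053) and -0.10 (edgeR adjusted p = 0.0135). The direct comparison gave 0.14 (SE 0.05, edgeR adjusted p = 0.0193), and this call was lost without phenylephrine replicate 1 or 3 or IGF1 replicate 2 or 3 (edgeR adjusted p = 0.0548 to 0.127), in a fit of these groups alone (edgeR adjusted p = 0.058) and, at 0.037, under scaling by library size only.

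Levels are not ranked between genes, since CPM does not correct for transcript length. Igfbp1, the liver form of the family, was at or near 0: it had 0 reads in all 3 phenylephrine samples, 1, 1 and 2 reads in the IGF1 samples and 0, 1 and 0 reads in the vehicle samples. Igfals, the acid-labile subunit of the circulating IGF complex, had 0 to 4 reads per sample. Among genes past 5 CPM in a group, the closest patterns over the 9 samples (Pearson r of log2 CPM, a description across samples of 3 groups) were Vsig10 and Tgfb3 for Igf1r (r = 0.996 and 0.992), Ampd3 and Nqo2 for Igfbp3 (0.994 and 0.994), Wdhd1 and Rgs12 for Igfbp5 (0.994 and 0.991) and Enpp5 and Elmsan1 for Igf2 (0.993 and 0.992). The closest were Sox13 and Asah1 for Igfbp2 (0.987 and 0.986), Ptprv and Pmf1 for Igfbp4 (0.988 and 0.988), Fundc2 and Hsf1 for Igfbp7 (0.983 and 0.979), Maml1 and Pard3 for Igf2r (0.977 and 0.970) and Hsd3b7 and Aplf for Igfbp6 (0.949 and 0.947). For Igf1, which showed no call, they were Ppapdc1b at 0.90 and Zkscan1 at 0.89. Between members, r was -0.97 for Igf1r with Igfbp3 and 0.97 for Igfbp4 with Igfbp5. These values mix how the group means lie with the spread within groups. IGF1 replicate 1, relative to the mean of the other IGF1 samples, was at 0.50 for Igf1r and -0.58 for Igfbp3 on the log2 scale.

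Downstream of the receptors, the adaptor gene Irs2 had 273, 295 and 282 CPM with phenylephrine, 96.2, 75.1 and 78.0 CPM with IGF1 and 177, 184 and 172 CPM with vehicle. It lay in the same order of groups as Igf1r, with no overlap, and phenylephrine against IGF1 was 3.42-fold (log2 1.77, edgeR adjusted p = 5.52e-09). Irs1, the other main adaptor, fell in both comparisons with vehicle, by 0.38 with phenylephrine and by 0.75 with IGF1 on the log2 scale (edgeR adjusted p = 0.000343 and 7.9e-07). Of the 14 tested genes of receptor-proximal signalling and feedback, 5 rose and 6 fell with phenylephrine, and 5 rose and 5 fell with IGF1. The shares over all genes were 27.9% higher and 28.9% lower for phenylephrine, and 24.7% higher and 23.4% lower for IGF1, and the counts of the lists below stand against the same shares. The median log2 fold change of the 14 genes was -0.05 with phenylephrine, beside -0.03 over all genes, and 0.04 with IGF1, beside -0.0018. The phosphatase genes Ptpn1 (log2 0.39 with phenylephrine and 0.44 with IGF1) and Ptpn11 (0.40 and 0.32) rose in both comparisons with vehicle.

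The adaptor gene Grb10, which restrains insulin and IGF1 receptors, rose in both comparisons, by 0.35 with phenylephrine and by 0.58 with IGF1 on the log2 scale (edgeR adjusted p = 2.94e-06 and 2.29e-08). Grb2, which links receptors to Ras, was at 0.0065 with phenylephrine (edgeR adjusted p = 0.916) and rose by 0.45 with IGF1 (edgeR adjusted p = 2.15e-06). The cytokine signalling inhibitor Socs3 averaged 4.57 ± 0.140 CPM with phenylephrine, 5.11 ± 1.35 CPM with IGF1 and 8.65 ± 1.28 CPM with vehicle (SD, n = 3 each), and it fell in both comparisons (log2 -0.92 and -0.74). Socs2, an inhibitor of growth hormone signalling, also fell in both, by 0.81 with phenylephrine (edgeR adjusted p = 2.13e-07) and by 0.56 with IGF1 (edgeR adjusted p = 9.07e-06). The insulin receptor gene Insr averaged 141 ± 5.16 CPM with phenylephrine, 104 ± 7.52 CPM with IGF1 and 151 ± 7.62 CPM with vehicle (SD, n = 3 each). It fell with IGF1 by 0.54 on the log2 scale (edgeR adjusted p = 1.51e-06), while phenylephrine against vehicle was at -0.10 (edgeR adjusted p = 0.134) and phenylephrine against IGF1 at 0.44 (edgeR adjusted p = 8.6e-06). Without IGF1 replicate 1, the fall of Insr with phenylephrine passed, at -0.098 (edgeR adjusted p = 0.0175).

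**Figure D3:**
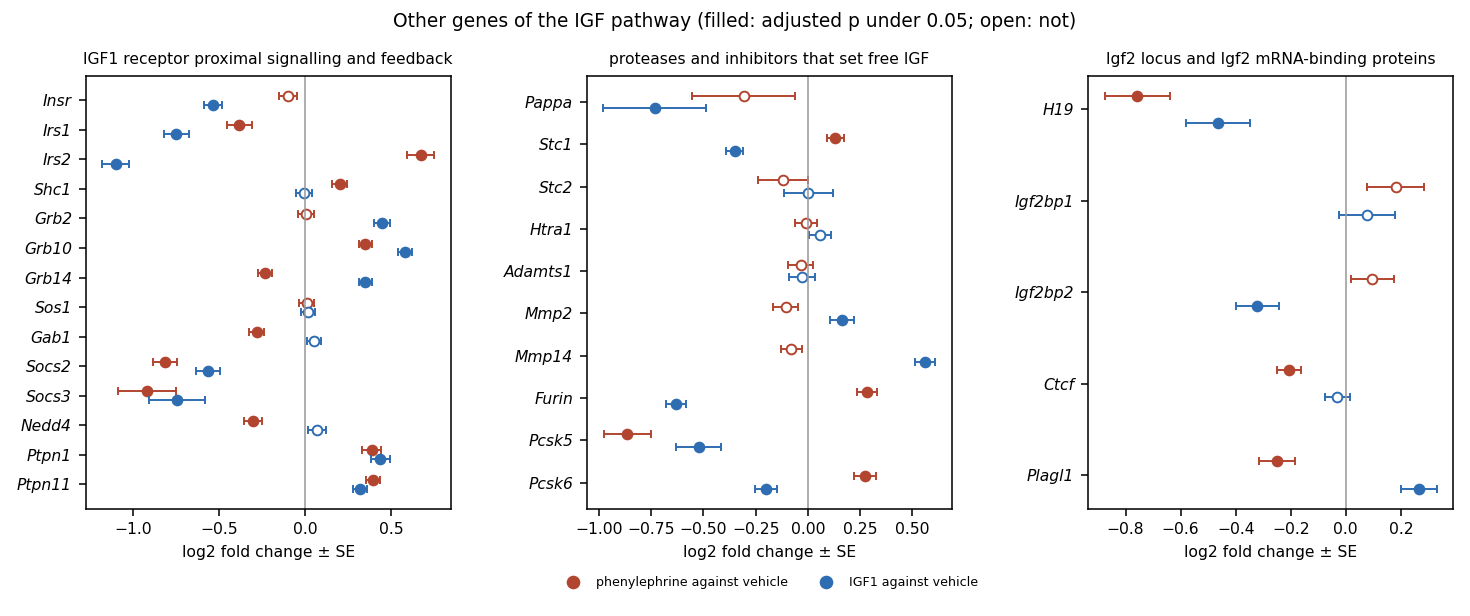
Log2 fold change (x axis) of the tested genes (rows) of 3 pathway lists (panels) against vehicle, for phenylephrine and for IGF1; bars are SE, and points are filled where edgeR's adjusted p was under 0.05. Irs2 lies at 0.67 with phenylephrine and -1.10 with IGF1, and Furin at 0.28 and -0.63.

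Among 10 tested proteases and inhibitors that set the amount of free IGF, 3 rose and 1 fell with phenylephrine, while 2 rose and 5 fell with IGF1. Furin, which cuts precursors of IGF1R and of the IGFs, averaged 318 ± 6.49 CPM with phenylephrine, 169 ± 9.53 CPM with IGF1 and 261 ± 12.3 CPM with vehicle (SD, n = 3 each). It rose by 0.28 with phenylephrine and fell by 0.63 with IGF1 on the log2 scale (edgeR adjusted p = 0.000143 and 8.38e-08). The related convertase gene Pcsk5 fell in both comparisons, by 0.86 with phenylephrine and by 0.52 with IGF1. Pappa, the gene of the protease that cuts IGFBP4, fell with IGF1 by 0.73 (edgeR adjusted p = 0.0288). That call was lost without vehicle replicate 1 or 2 and in a fit of these groups alone. Without IGF1 replicate 1 it was kept, at -0.45 (edgeR adjusted p = 0.00712). The 2 rises with IGF1 were those of the metalloprotease genes Mmp14, by 0.56 (edgeR adjusted p = 3.88e-07), and Mmp2, by 0.16 (edgeR adjusted p = 0.0337). For Mmp2 the samples of the groups overlapped, and the call was lost under scaling by library size only, in a fit of these groups alone and without any 1 of 7 samples (vehicle replicates 2 and 3, all 3 of phenylephrine, IGF1 replicates 2 and 3). The 3 rises with phenylephrine (Furin, Pcsk6 at 0.28 and Stc1, a PAPP-A inhibitor gene, at 0.13) were all lost under scaling by library size only, where Stc1 was at -0.062, and that of Stc1 also without vehicle replicate 1 or 2 or phenylephrine replicate 3. Without IGF1 replicate 1, 3 genes of this list fell with phenylephrine.

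Of 3 tested genes of other proteins with an IGF-binding domain, Crim1, Esm1 and Kazald1, all 3 rose with phenylephrine (log2 0.20, 0.53 and 0.42), calls that scaling by library size only removed. Those of Esm1 and Kazald1 were also lost without phenylephrine replicate 1, that of Esm1 without vehicle replicate 1 or 2 and that of Kazald1 without vehicle replicate 3. With IGF1, Crim1 and Esm1 fell, by 0.84 and 1.03 on the log2 scale (edgeR adjusted p = 6.68e-10 and 0.000326). In the CCN family, matrix proteins with a domain like that of IGFBPs, 1 of 5 tested genes rose and 1 fell with phenylephrine, and 2 fell with IGF1. Cyr61 rose with phenylephrine by 1.26 (edgeR adjusted p = 0.00484), Wisp1 fell by 0.35 (edgeR adjusted p = 0.0101; lost without vehicle replicate 1), and Nov and Wisp2 fell with IGF1 by 1.18 and 0.74 (edgeR adjusted p = 9.61e-11 and 3.1e-05).

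Ctgf, the connective tissue growth factor gene of this family, had 2621, 2742 and 2677 CPM with phenylephrine, 1439, 360.4 and 362 CPM with IGF1 and 1017, 1034 and 1066 CPM with vehicle. IGF1 replicate 1 lay above all vehicle samples and the other IGF1 samples far below them, while all phenylephrine samples were the highest. With all samples, phenylephrine against vehicle was at 1.37 on the log2 scale (edgeR adjusted p = 0.0828), IGF1 against vehicle at -0.53 (edgeR adjusted p = 0.48) and phenylephrine against IGF1 at 1.90 (edgeR adjusted p = 0.0311), a call lost in a fit of these groups alone and without any 1 sample other than IGF1 replicate 1. Without IGF1 replicate 1 these were 1.37, -1.53 and 2.89, and all passed (edgeR adjusted p = 1.08e-34, 1.27e-32 and 2.16e-42). The CCN counts then became 3 higher with phenylephrine, with Ctgf and Nov (0.10, edgeR adjusted p = 0.00923) added, and 4 lower with IGF1, with Ctgf and Cyr61 (-0.68, edgeR adjusted p = 2.17e-20) added.

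Of 7 tested genes of mannose 6-phosphate sorting, the other role of IGF2R, 1 rose and 3 fell with phenylephrine and 5 fell with IGF1, where 23.4% of all genes fell. Without IGF1 replicate 1, 2 rose with phenylephrine. M6pr, the smaller mannose 6-phosphate receptor gene, rose with phenylephrine by 0.32 on the log2 scale (edgeR adjusted p = 1.22e-05), whereas Igf2r fell. The sorting adaptor gene Gga2 fell with phenylephrine by 0.39, and Nagpa, whose enzyme uncovers the mannose 6-phosphate tag, fell with IGF1 by 0.58 (edgeR adjusted p = 4.89e-06 and 0.000464). All 5 tested genes of the growth hormone axis, which drives Igf1 transcription in liver, were called with phenylephrine, 1 higher and 4 lower, in a comparison where 27.9% of all genes were higher and 28.9% lower. The receptor gene Ghr averaged 143 ± 1.63 CPM with phenylephrine, 221 ± 25.8 CPM with IGF1 and 220 ± 4.20 CPM with vehicle (SD, n = 3 each). It fell with phenylephrine by 0.62 (edgeR adjusted p = 3.02e-06), as did Stat5a by 0.69 and Cish by 0.43, while Stat5b rose by 0.30, a call lost under scaling by library size only. With IGF1, 1 of these 5 genes fell, Jak2 by 0.15 (edgeR adjusted p = 0.0188), a call lost without vehicle replicate 3. When IGF1 replicate 1 was left out, 2 rose with IGF1: Ghr at 0.10 (edgeR adjusted p = 0.00834) and Stat5b at 0.16 (edgeR adjusted p = 0.00875).

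**Figure D4:**
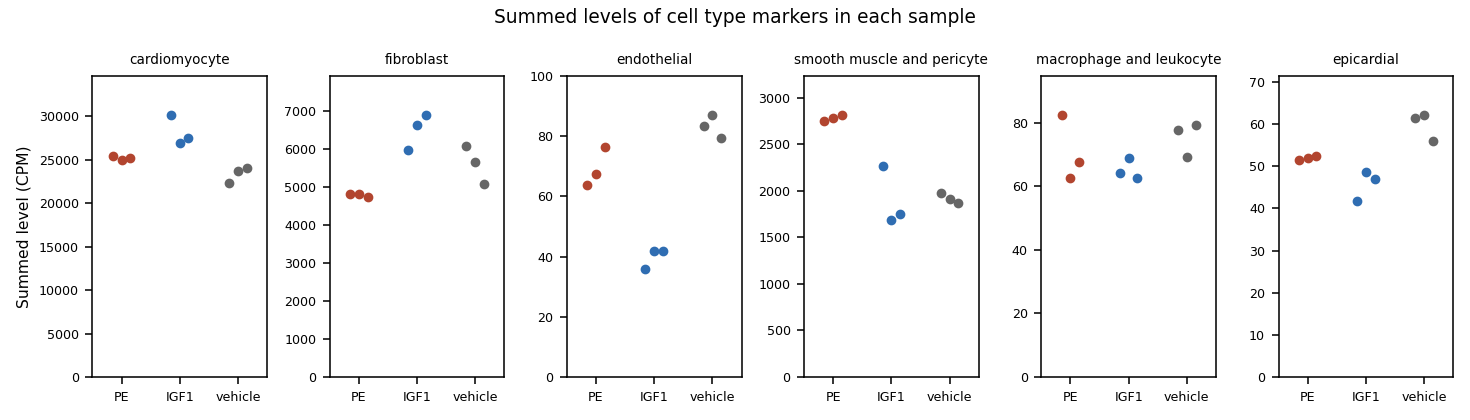
Summed level in CPM (y axis) of the markers of 6 cell types in each sample, with phenylephrine (PE), IGF1 and vehicle along the x axis; points are samples. Fibroblast markers run from 5966 to 6888 CPM with IGF1 and endothelial markers from 35.8 to 42.0 CPM with IGF1, below the 79.4 to 87.0 CPM with vehicle.

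Some markers of other cell types also differed between the groups. Of 10 tested fibroblast markers, 1 rose and 4 fell with phenylephrine, and 4 rose and 1 fell with IGF1. Col3a1 was at -0.43 with phenylephrine and 0.55 with IGF1, Postn at -0.27 and 0.73, and Pdgfra at -0.38 and -0.39 on the log2 scale, all called, whereas Tcf21 was at 0.06 and -0.04 and Ddr2 at -0.04 and -0.07, neither called. The collagen gene Col1a2 was near 0 in every sample (1 to 10 reads), while Col1a1 was not. Igfbp3, Igfbp4 and Igfbp5, higher with IGF1, thus moved with part of this list, and its part in their values was not tested. Endothelial markers summed to 63.6 to 76.3 CPM with phenylephrine, 35.8 to 42.0 CPM with IGF1 and 79.4 to 87.0 CPM with vehicle, with Cldn5 at 0 to 9 reads. Smooth muscle and pericyte markers summed to 2753 to 2814, 1689 to 2272 and 1872 to 1975 CPM in the same order of groups. The 2272 was IGF1 replicate 1, while IGF1 replicates 2 and 3 (1689 and 1751 CPM) lay below all vehicle samples. Of 8 tested markers of this list, 4 rose and 1 fell with phenylephrine, and 0 rose and 2 fell with IGF1. Epicardial markers summed to 51.5 to 52.3, 41.8 to 48.7 and 56.0 to 62.1 CPM, and macrophage and leukocyte markers to 62.5 to 82.3, 62.5 to 68.9 and 69.1 to 79.3 CPM. The order of groups for the epicardial and endothelial sums was that of Igfbp2 and Igf2r, and their part in those values was not tested either. Single markers did not all follow their sum. Of 9 tested endothelial markers, 1 rose and 1 fell with phenylephrine and 5 fell with IGF1: Kdr, which made up a large part of the sum, was at -0.65 and -1.76 on the log2 scale, whereas Egfl7 was at 1.22 with phenylephrine and -0.36 with IGF1. Of 5 tested epicardial markers, 1 rose (Upk1b, 0.76) and 2 fell (Tbx18, -0.26, and Aldh1a2, -0.81) with phenylephrine, and 3 fell with IGF1.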

How the data were processed

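Per the labels' protocols, libraries of total RNA from the cultured rat cardiomyocytes were prepared by a NuGEN Ovation kit and read on a NovaSeq. The authors deposited raw counts of reads per gene, whole numbers without normalization, in a table of 17327 rows and 9 samples. The rn5 build and the tools STAR, HTSeq and DESeq are named in the submitters' processing notes; versions, roles and whether counting used strand are not given in the sources used here, so reads of a gene and of an antisense partner cannot be told apart. In 26 rows the symbol had become a calendar date.

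Groups and replicate numbers came from the sample titles. Genes were filtered with edgeR 4.0.16 (filterByExpr, minimum count 10, minimum total 15), leaving 11873 genes with 99.986% of the counts. With TMM factors, a robust quasi-likelihood model with a term for group was fitted to all 9 samples in R 4.3.3. Each adjusted p is from the quasi-likelihood F test, Benjamini-Hochberg adjusted over those 11873 genes (threshold 0.05), unless another test is named. The SE was computed as the size of the log2 fold change over the square root of F, and intervals are 95%. CPM were computed with the TMM factors and given as mean ± SD or per sample. The code was tested on simulated data.

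The members and gene lists were chosen with earlier results of these data known. The text names all 10 members, and for each the 2 genes of most alike pattern by Pearson r (prior count 2, at least 5 CPM in a group, 9498 genes). From each pathway list, genes to name were drawn from the 3 largest rises and 3 largest falls among those called in a comparison. Not all of these are named, and Grb14, Nedd4 and Sort1 are among those left out. Igfbp1 and Igfals are named for their low counts. Cell type markers named one by one were chosen after their values were seen. Alternatives were DESeq2 1.42.0, limma-voom (limma 3.58.1), other factors, library size only, other filters, the compared groups alone, a replicate block, an adjusted p of 0.01, and leaving out each sample. For the pathway lists and their genes, the alternatives were chosen after seeing the data. Promoter sequences are from RefSeq tables of GRCr8, for which all 10 members matched. That build differs from rn5, so it was used for names, sequence and neighbours only.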

Additional observations from a re-analysis of the deposited data

How the results depend on the processing

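Of 510 results (10 members in 3 comparisons under 17 alternatives), 479 kept their direction and side of the threshold. Another 15 lost a call, 10 gained one and 6 reversed. The 17 do not include the adjusted p of 0.01, and some of them only left out a sample of the group not compared. None of the reversed values was called in the main analysis. Scaling by library size only moved the median log2 fold change of all genes from -0.03 to -0.22 for phenylephrine against vehicle and from -0.0025 to -0.11 for phenylephrine against IGF1, and from -0.0018 to -0.08 for IGF1 against vehicle, so changes are read relative to these shifts. Under it 1751 genes were higher and 5696 lower with phenylephrine than with vehicle, and 2132 were higher with phenylephrine than with IGF1. The members called lower became 7 with phenylephrine, Igfbp4 and Igfbp6 added, and 5 with IGF1, Igf2 and Igfbp7 added. Those higher with phenylephrine than with IGF1 became 1. No count of all genes is given here for IGF1 against vehicle under this scaling, so nothing is read from those 5. Igfbp7 reversed to -0.095 (phenylephrine against vehicle), and Igf1 and Igf2r to -0.087 and -0.013 (phenylephrine against IGF1). At an adjusted p of 0.01 in edgeR, 0 members were higher and 3 lower with phenylephrine than with vehicle. Igf1r was higher at an unadjusted p of 0.00501 in edgeR, and was called in DESeq2 and limma-voom at 0.05. At 0.01, 2 members were higher and 4 lower with phenylephrine than with IGF1. Shares of all genes at 0.01 are not given here, so nothing is read from these counts. Fitting only the groups compared, at 0.05, gave 2 members higher with phenylephrine than with vehicle.

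Leaving out 1 sample at a time gave 1 to 2 members higher and 3 to 5 lower for phenylephrine against vehicle, 3 to 3 and 3 to 4 for IGF1 against vehicle, and 2 to 4 and 4 to 4 for phenylephrine against IGF1. Over all genes, 2849 to 3749 were higher and 3075 to 3875 lower, 2394 to 3292 and 2408 to 3194, and 2794 to 3662 and 2876 to 3638, in the same order of comparisons. Igf1 for phenylephrine against IGF1 ran from -0.071 to 0.16, at -0.050 without IGF1 replicate 1 and -0.023 without IGF1 replicate 2. The cause of these moves was not tested.

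No effect shared by samples of the same replicate number was seen: their deviations from group means correlated at -0.0846 to 0.021. Whether a number marks a shared culture is not stated in the labels, and these values cannot decide it, as samples of different numbers were not compared. With the number as a block, 3253 genes were higher and 3395 lower with phenylephrine than with vehicle, 2871 and 2723 with IGF1 than with vehicle, and 3167 and 3145 with phenylephrine than with IGF1. No member call changed under the block, while with IGF1 3 rather than 5 genes of mannose 6-phosphate sorting fell and 1 rather than 2 proteases and inhibitors rose. Igf1, Igfbp2 and Igfbp5 rest on 113 to 903 reads per sample, which limits their precision.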
